A study of Homo sapiens with 47 samples.

Results

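Redox genes linked to the transcription factor NRF2 were followed in single circulating tumor cells (CTCs). They are NQO1, HMOX1, GCLM, SRXN1, TXN, TXNRD1, PRDX1, GPX4, SLC7A11 and FTH1. They were taken by name as a fixed list of 10 genes, and all 10 had a row among the 25739 genes of the table. The cells came from MDA-MB-231-LM2, a lung-metastatic derivative of a human triple-negative breast cancer line, which carried GFP. CTCs were picked from the blood of immunodeficient NSG mice. The mammary fat pad of these mice had received the cells when the animals were 6 to 8 weeks old. The comparison cells were LM2 cells grown in tissue culture.

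The table held 37 CTCs from 5 mice, with 2 cells from mouse 5541, 4 from 5542, 10 from 5545, 17 from 5546 and 4 from 5549, and 6 cultured cells. The cells of mouse 5546 carry a letter, c for 9 cells and s for 8, which the labels do not explain. Blood was drawn when tumors had reached their terminal volume and was enriched by cell size. GFP-positive cells without staining for the leukocyte protein CD45 were taken one at a time. The CTCs are thus a selection by GFP and CD45 staining from a single cell line, in hosts without adaptive immunity. Reads of PTPRC, the gene of CD45, were found in 11 of the 37 CTCs. The mouse is the replicate for CTCs, and the 6 cultured cells stand for 1 culture. Each CTC had 469614 to 2041333 reads on genes and 2227 to 11010 genes detected, and each cultured cell had 776949 to 1186197 reads and 7226 to 12271 genes. The mitochondrial share of reads was 4.28% to 23.9% in CTCs and 4.05% to 5.74% in cultured cells. The summed value of the erythroid marker genes, of which 9 of 13 listed were in the table, was 0 in every cultured cell, with all 9 markers at 0 there, and ran from 0 to 15571 with a median of 1290 over the CTCs.

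NRF2 is held at a low level by KEAP1, which marks it for degradation, and is released when oxidants or electrophiles modify KEAP1. It then binds antioxidant response elements with small MAF proteins, and BACH1 competes for the same elements. Its targets supply glutathione (SLC7A11 imports cystine, GCLM is the modifier subunit of the enzyme that joins cysteine to glutamate), run the thioredoxin system (TXN, TXNRD1, PRDX1, SRXN1), reduce quinones (NQO1), and handle heme and iron (HMOX1, FTH1). GPX4 is the selenoenzyme that reduces lipid hydroperoxides in membranes and so holds back ferroptosis.

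The table of RefSeq promoter sequences held 9 start windows for 6 of the 10 genes. The stretches upstream of 2 starts are shown because NQO1 is the gene on which the comparison turned, and TXNRD1 holds the core letters of the antioxidant response element, TGACNNNGC, which are set in capitals. The NQO1 stretch is chr16:69726669-69726767 and the TXNRD1 stretch chr12:104215529-104215778 (GRCh38.p14). Both read 5′ to 3′ on the gene's strand, minus for NQO1 and plus for TXNRD1, and bases inside any annotated exon were left out.
NQO1: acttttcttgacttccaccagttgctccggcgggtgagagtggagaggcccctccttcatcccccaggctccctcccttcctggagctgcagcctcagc
TXNRD1: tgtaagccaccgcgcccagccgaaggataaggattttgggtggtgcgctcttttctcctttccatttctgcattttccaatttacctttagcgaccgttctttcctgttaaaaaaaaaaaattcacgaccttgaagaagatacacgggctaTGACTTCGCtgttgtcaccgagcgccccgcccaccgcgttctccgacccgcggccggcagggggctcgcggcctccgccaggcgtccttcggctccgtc
The TXNRD1 match starts 99 bases before the transcription start. Searched on both strands in the 250 bases before each start, the core letters were found in 3 of the members' 9 windows and in 10.9% of all 35116 windows of that length. Those 3 windows belong to GCLM and to 2 starts of TXNRD1, so the count is one of windows and not of genes. Apart from the match shown, none lay within the stretch kept after exon bases were left out. Enrichment was not tested, and bases further upstream were not searched. A match is a description of these letters. The fully specified form TGACTCAGC, a single sequence that fits the core, was in 0.456% of all windows and in 0 of the members' windows.

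The levels of the 10 genes are given as normalized reads, which are reads on a gene divided by the cell's size factor. Between genes they are compared only per kb of the canonical transcript. In CTCs, FTH1, the heavy chain of ferritin, had 1555 ± 556 normalized reads per kb (mean of mouse means, SD, n = 5 mice). TXN, the small thiol reductant thioredoxin, had 1265 ± 499 per kb, GPX4 had 725 ± 478 per kb and PRDX1, a peroxiredoxin that reduces hydrogen peroxide, had 660 ± 264 per kb. These 4 genes formed the upper end, and within it FTH1 was above TXN in 3 of 5 mice and GPX4 above PRDX1 in 2 of 5 mice. NQO1 came next at 70.7 ± 16.5 per kb, below PRDX1 in 5 of 5 mice. HMOX1 had 22.0 ± 37.7 per kb, TXNRD1 8.40 ± 4.97, GCLM 7.38 ± 6.32, SLC7A11 3.85 ± 5.19 and SRXN1 0.695 ± 0.367. None of the neighbours among these last 5 differed by more than the larger of their SDs. In the culture NQO1 stood at 778 per kb, above GPX4 at 544 per kb, so NQO1 was the fourth of the 10 genes there and the fifth in CTCs, and GPX4 was the fifth there and the third in CTCs.

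NQO1, the quinone reductase used as the standard readout of NRF2 output, was far below the culture in the CTCs of all 5 mice. It lies on the minus strand at chr16:69706996-69726668 (GRCh38), and 1 row of the opposite strand overlaps it, whose reads could not be told apart by counting without strand. The 6 cultured cells had 1391, 1663, 1774, 2005, 2127 and 2802 normalized reads of NQO1. The 37 CTCs ran from 0 to 2088 with a median of 93.7. Of these, 36 lay below the lowest cultured cell, and the exception was cell s6 of mouse 5546 at 2088. Mouse 5541 had 27.6 and 270.5 normalized reads, mouse 5542 had 48.4, 70.4, 195 and 339, and mouse 5549 had 0, 22.8, 224 and 336. Mouse 5545 ran from 0 to 482 with a median of 104, and mouse 5546 from 0 to 2088 with a median of 55.5. The mouse means were 149, 163, 186, 247 and 146, and their mean of 178 ± 41.6 (SD, n = 5 mice) was 11.0-fold below the culture mean of 1960. Without cell s6, left out after its value was seen, the mean of mouse 5546 was 132 and the mean of mouse means 155 ± 20.5 (SD, n = 5 mice), 12.6-fold below the culture, with log2 ratios of −3.88 to −3.39. The spread of NQO1 over mice was the smallest of the 10 genes on the log2 scale, with mean log2 ratios to the culture of −3.74 to −2.98. NQO1 reads were found in 33 of 37 CTCs (89.2%, exact 95% binomial interval 74.6 to 97.0, which covers counting error only). Since the culture is 1 sample, there is no replicate check on the culture side.

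**Figure D1:**
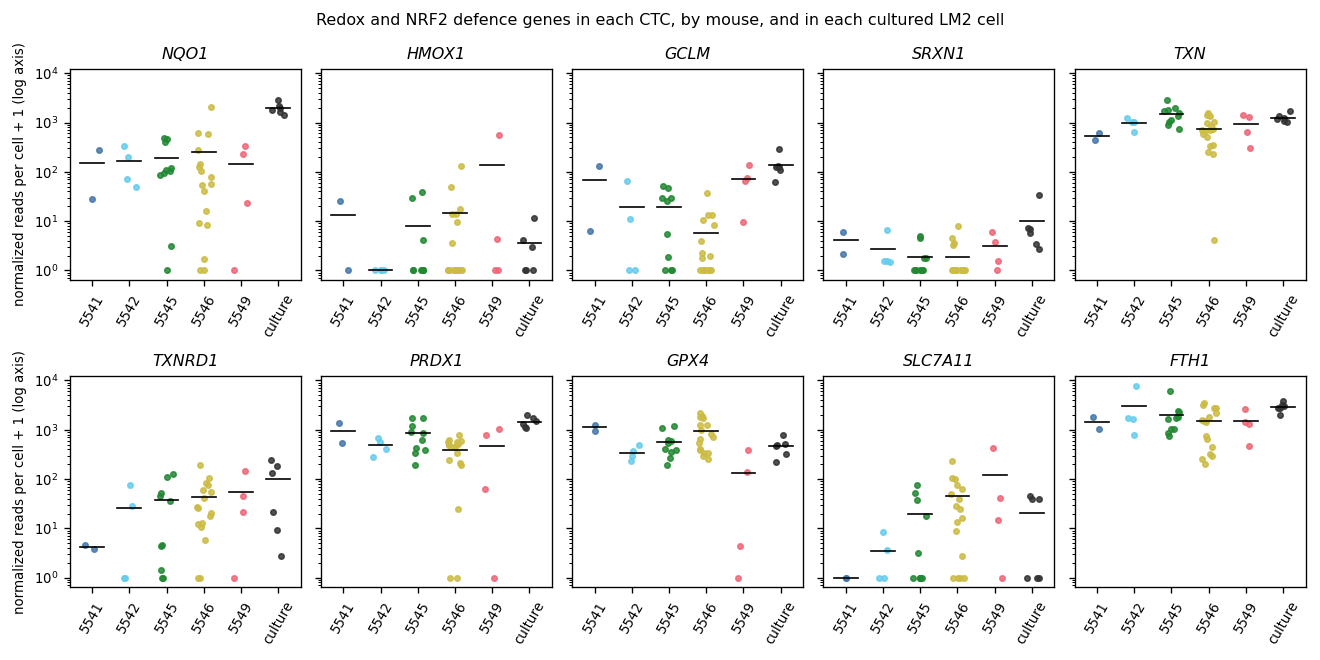
Normalized reads per cell plus 1 (vertical log axis) of the 10 genes in each CTC, with 1 column per mouse, and in each of the 6 cultured LM2 cells; each point is a cell and the black line is the group mean. The NQO1 points of 36 of 37 CTCs lie below the lowest cultured cell at 1391, while the GPX4 points of 12 CTCs lie above the highest cultured cell at 767.

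Genes were called different by a fixed rule of size: the mean of each of the 5 mice had to differ at least 4-fold in the same direction from the culture mean, with 1 added to each, and the larger mean had to reach 8. NQO1 was the 1 member called, and it was lower. The rule called 5.31% of all 9164 genes lower and 0.0655% higher, and among genes with a culture mean of at least 100 it called 6.05% lower, so 1 of 10 members is near the background. At 2-fold the members lower in CTCs were NQO1 and SRXN1, beside 25.1% of all genes lower and 0.262% higher. Without cultured cell LM-3, left out after the values were seen, the SRXN1 call was lost, since its larger mean was under 8 and its highest ratio −0.34, and 3 members, NQO1, GCLM and TXNRD1, were lower. The 5 members NQO1, GCLM, TXNRD1, SRXN1 and PRDX1 were below the culture in all 5 mice, as were 60.3% of all genes, and 0 members were above it in all 5 mice, where 1.04% of all genes were. With CPM, a scaling described next, NQO1, GCLM and SRXN1 were still below the culture in all 5 mice, with SRXN1 under the minimum mean of 8, and TXNRD1 and PRDX1 were not.

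Most genes of the table were lower in CTCs than in the culture on this scale. The median log2 ratio over all 9164 genes was −1.56, and 91.3% of genes were below 0, against a median of −1.01 for the 10 members. With CPM (reads of a gene scaled to a common total of reads on genes per cell) in place of the size factors the median of all genes was −0.81, and in edgeR on reads summed per mouse it was 0.31. The members are therefore also given relative to the median gene of each scale. NQO1 was 1.92 below it on the log2 scale of the normalized values, 1.94 below it in CPM and 2.38 below it in edgeR. In CPM 36 of 37 CTCs were again below the lowest cultured cell for NQO1, at a median of 93.4 CPM against 988 to 2092 in cultured cells. A pattern of at least 36 of 37 CTCs below the lowest cultured cell was met by 1.35% of all genes with the normalized values and by 0.251% in CPM, where NQO1 was 1 of 23 genes, and the limit of 36 was set by the NQO1 count itself. With the ratios of each mouse centred on its median gene, NQO1 kept ratios of −2.20 to −1.65 and was no longer 4-fold lower in every mouse, but was called at 2-fold.

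The count test gave the same direction for NQO1 and no call after adjustment. Reads of NQO1 summed per mouse were lower in CTCs by a log2 fold change of −2.07 (SE 0.553), with an unadjusted p of 0.00289 and an adjusted p = 1.00 in the quasi-likelihood test of edgeR with Benjamini-Hochberg adjustment. Over all 13813 genes edgeR called 0% lower and 0% higher in CTCs. At an unadjusted p under 0.05 it had 101 genes lower and 140 higher, and the Wald test of DESeq2 called 2 lower and 18 higher, with 0 members among them. The edgeR test takes the culture to vary as the mice do. With 1 culture it called no gene here, so a missing call does not show that a gene was unchanged.

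**Figure D2:**
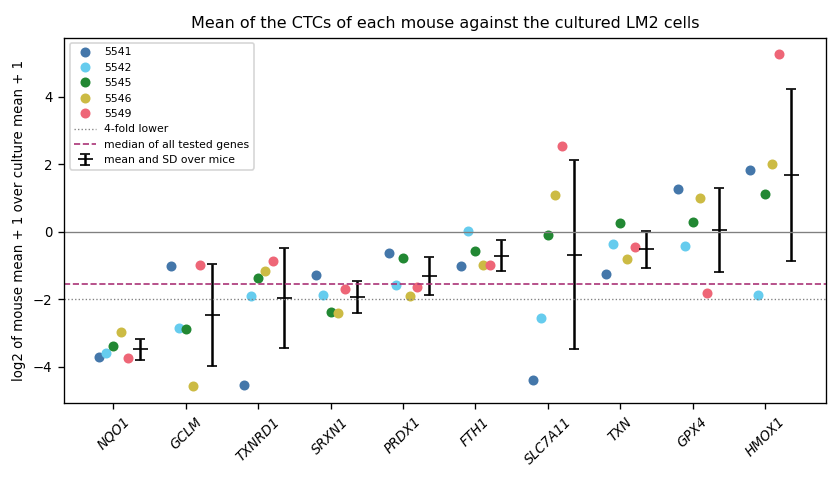
Log2 ratio of the mean of each mouse plus 1 to the culture mean plus 1 (vertical axis) for the 10 genes, 1 colored point per mouse, with the mean and SD over the 5 mice in black. NQO1 lies between −3.74 and −2.98 in every mouse, below both the dotted 4-fold line and the dashed median of all tested genes at −1.56.

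GCLM, the second gene of the list by mean ratio, varied between mice. It lies on the minus strand at chr1:93885199-93909456. Cultured cells had 61.5 to 286 normalized reads, with a median of 124, and CTCs had 0 to 137, with a median of 4.41. In all, 32 of 37 CTCs were below the lowest cultured cell, and reads were found in 24 of 37 CTCs. The mouse means were 68.0 in 5541, 18.5 in 5542, 18.2 in 5545, 4.87 in 5546 and 70.6 in 5549. The mean log2 ratio to the culture was −2.46 ± 1.51 (SD, n = 5 mice), and GCLM was below 0 under every scaling tried, by −1.70 in CPM and by −0.47 in edgeR (SE 1.26, adjusted p = 1.00). Within mouse 5546 GCLM was found in 7 of 9 c cells and 2 of 8 s cells, and the s cells had 4225 to 6942 genes detected against 7438 to 11010 in the c cells, so the letter and the number of genes detected cannot be told apart.

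SLC7A11, the cystine transporter xCT, was at 0 in many cells and high in a few. It lies on the minus strand at chr4:138164097-138242349 and is overlapped by the row of its antisense RNA. Cultured cells with many genes detected (LM-1, P3 and P4) had 37.8 to 43.6 normalized reads, and the other 3 had 0, where a count of 0 allows up to 1.13 CPM. CTCs had a median of 7.87, and reads were found in 23 of 37. In all, 9 CTCs were above the highest cultured cell, led by cell 6 of mouse 5549 at 430. The mouse means were 0, 2.53, 18.4, 43.8 and 121 from 5541 to 5549, and the mean log2 ratio of −0.68 ± 2.79 (SD, n = 5 mice) was smaller than its spread. It was 0.24 without mouse 5541, whose 2 cells had 0 reads, −0.21 without mouse 5542, −1.13 without mouse 5546 and −1.49 without mouse 5549. Its sign also turned with the scale, at 0.04 in CPM and 1.80 in edgeR (SE 2.25, adjusted p = 1.00). Against the 3 gene-rich cultured cells alone the ratio was −1.65, and against the 3 at 0 no ratio is given.

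Of the thioredoxin system, PRDX1 was below the culture in every mouse and TXN on both sides of it, by the normalized values. PRDX1 (minus strand, chr1:45510914-45542732, overlapped by MMACHC) had 1101 to 1948 normalized reads in cultured cells and 0 to 1769 in CTCs, with a median of 497. In all, 33 of 37 CTCs were below the lowest cultured cell, and 29 of 37 in CPM. Its mean log2 ratio was −1.30 ± 0.57 (SD, n = 5 mice), which is 0.26 above the median gene, and in edgeR its fold change was 0.15, so its direction turned with the scale. TXN (minus strand, chr9:110243810-110256507) was found in 37 of 37 CTCs, at 3.23 to 2821 with a median of 899, against 1032 to 1709 in cultured cells. The mouse means of TXN ran from 534 in 5541 to 1512 in 5545 around the culture mean of 1260. The TXN ratio of −0.52 ± 0.56 (SD, n = 5 mice) was 1.04 above the median gene, and was 0.19 in CPM and 0.90 in edgeR.

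TXNRD1, the selenoenzyme that recharges thioredoxin, split the cultured cells. It lies on the plus strand at chr12:104215779-104350307, and 3 other rows overlap it. The gene-rich cultured cells had 134, 181 and 240 normalized reads and the gene-poor ones 1.72, 8.21 and 20.1. CTCs ran from 0 to 190 with a median of 20.4, and reads were found in 30 of 37. Both CTCs of mouse 5541 were low, at 2.81 and 3.62. The mean log2 ratio was −1.97 ± 1.49 (SD, n = 5 mice), −2.88 against the gene-rich cultured cells and 1.20 against the gene-poor ones. SRXN1, the sulfiredoxin that restores overoxidized peroxiredoxins (minus strand, chr20:646615-653200), had 0 to 6.86 normalized reads in CTCs with a median of 0. Reads were found in 17 of 37 CTCs, and no CTC reached 8. In cultured cells SRXN1 was 1.72 to 6.27 apart from cell LM-3 at 32.8, and without LM-3 its mean log2 ratio moved from −1.92 to −0.99.

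GPX4 had the mean ratio to the culture closest to 0 by the normalized values, and it differed between mice. It lies on the plus strand at chr19:1103982-1106791. Cultured cells had 217 to 767 normalized reads, with a median of 477, and CTCs had 0 to 2195, with a median of 485. There were 12 CTCs above the highest cultured cell and 4 below the lowest. Mouse 5541 had 960 and 1274, and mouse 5542 had 229, 286, 374 and 485. Mouse 5545 ran from 188 to 1186 with a median of 480, mouse 5546 from 252 to 2195 with a median of 697, and mouse 5549 had 0, 3.35, 135 and 382. Thus both cells of mouse 5541 were above the culture mean of 463 and all 4 of mouse 5549 below it. The mean log2 ratio was 0.06 ± 1.24 (SD, n = 5 mice), 1.62 above the median gene, 0.83 in CPM and 1.69 in edgeR (SE 0.95, adjusted p = 1.00). In CPM 22 of 37 CTCs were above the highest cultured cell.

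**Figure D3:**
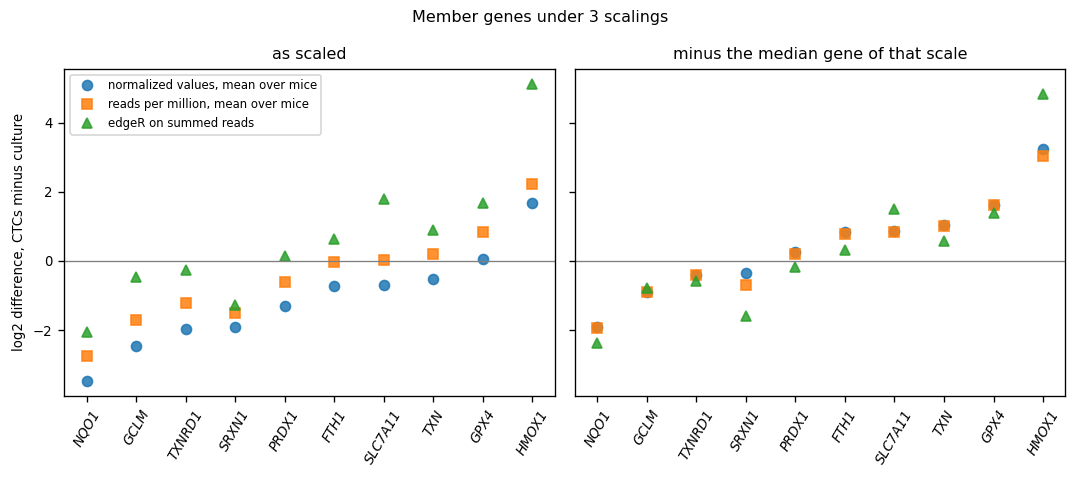
Log2 difference between CTCs and culture (vertical axis) of the 10 genes under 3 scalings: the mean over 5 mice from normalized values (circles), the same from CPM (squares), and edgeR on summed reads (triangles); the left panel shows the values as scaled and the right panel after the median gene of each scale was subtracted. NQO1 is the lowest gene in every panel, and TXN, PRDX1, SLC7A11 and FTH1 change sign between scalings on the left.

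HMOX1, the heme oxygenase that frees iron from heme, was carried by a few CTCs. It lies on the plus strand at chr22:35380361-35394214. The culture had 12 reads of HMOX1, in 3 of 6 cells, and 9 of these reads were in cell LM-P3. Reads were found in 13 of 37 CTCs (35.1%, exact 95% binomial interval 20.2 to 52.5) and the median was 0. The highest cells were cell 3 of mouse 5549 at 551 normalized reads and cell s6 of mouse 5546 at 131, and 9 CTCs were above the highest cultured cell at 10.7. In mouse 5542 HMOX1 had 0 reads in 4 cells, which allows up to 0.469 CPM. The mean of mouse means was 34.3 ± 58.6 (SD, n = 5 mice), larger in its spread than in its size, and without the highest cell the mean over 37 CTCs fell from 23.8 to 9.14. The mean log2 ratio was 1.67 ± 2.54 (SD, n = 5 mice), 0.78 without mouse 5549, 2.56 without mouse 5542, and 5.14 in edgeR (adjusted p = 1.00).

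FTH1 reads were found in 37 of 37 CTCs. The gene lies on the minus strand at chr11:61959718-61967634 and is overlapped by BEST1. Cultured cells had 1967 to 3796 normalized reads, and CTCs had 198 to 7850 with a median of 1529. In all, 27 CTCs were below the lowest cultured cell and 2 were above the highest, cell 4 of mouse 5542 at 7850 and cell 10 of mouse 5545 at 6037. The mean log2 ratio was −0.71 ± 0.46 (SD, n = 5 mice), 0.85 above the median gene, and was −0.03 in CPM and 0.64 in edgeR. As a share of FTH1 and FTL, the light chain, FTH1 made up 7.80% to 72.6% in CTCs, with a median of 35.7%, and 31.8% to 45.6% in cultured cells, with a median of 34.7%. The CTC median lay within the range of the cultured cells, and the CTCs spread more widely.

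The 18 rows of FTH1 pseudogenes, processed copies scattered over the genome, differed more than FTH1 itself. Their summed value was 3.76 to 19.0 normalized reads in cultured cells and 1.10 to 1985 in CTCs, with a median of 45.1. As a percentage of FTH1 it had a median of 0.351% in cultured cells and 4.15% in CTCs, up to 63.8% in cell s4 of mouse 5546. Across the 37 CTCs, which share mice and differ in depth, the pseudogene sum had a Spearman correlation of 0.68 with the erythroid marker sum, and 0.72 within mouse 5545 (10 cells) and 0.52 within mouse 5546 (17 cells). FTH1 itself had −0.14 with that sum over 37 CTCs. The CTCs came from mouse blood, and the authors aligned reads to the human genome with no described step to separate mouse reads. Host reads that fit a human gene could therefore be counted in these rows, in the erythroid rows and in the 10 members. The part of host or blood cell RNA in any of them was not tested. Reads that fit a copy as well as the gene had been set aside by the unique-mapping rule of the authors, so FTH1 values are uncertain by what was lost. The 6 TXN and 1 PRDX1 pseudogene rows had means of 0.609% and 0.0462% of their gene's mean in CTCs.

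**Figure D4:**
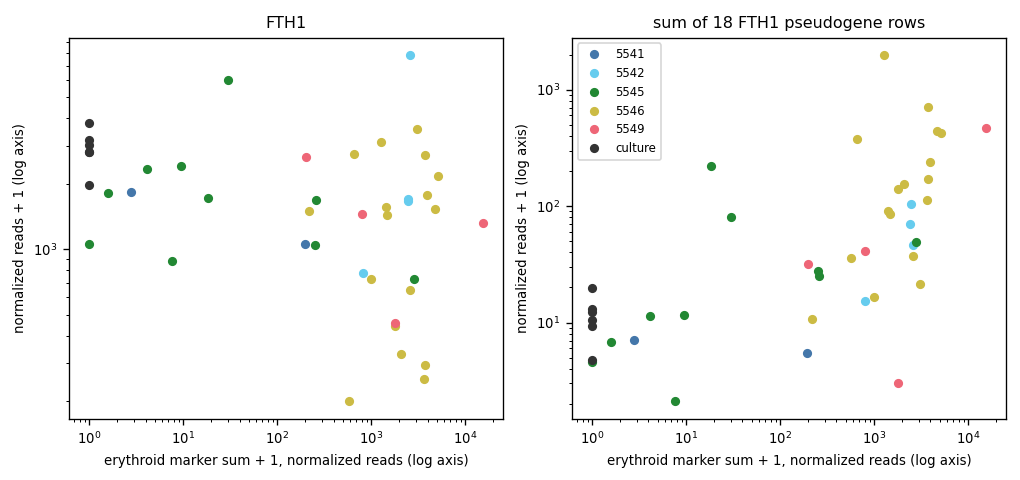
Normalized reads plus 1 of FTH1 (left) and of the sum of 18 FTH1 pseudogene rows (right) in each cell against the erythroid marker sum plus 1 (horizontal axis), all on log axes, with cells colored by mouse and cultured cells in black. The cultured cells sit at an erythroid sum of 0, and on the right the CTCs run from 1.10 to 1985, with the highest, cell s4 of mouse 5546, at an erythroid sum of 1290, the median of the CTCs.

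Cell s6 of mouse 5546 stood out over several members. It had the highest NQO1 (2088) and TXNRD1 (190) of the 37 CTCs, the second highest HMOX1 (131), and the fourth highest GPX4 (1718) and SLC7A11 (98.7). Its GCLM was 2.90 and its SRXN1 2.32, each the highest of the 8 s cells and rank 20 and 10 of the 37 CTCs. Cell 6 of mouse 5549 had the highest SLC7A11 (430) and 0 reads of NQO1, HMOX1, TXNRD1, PRDX1 and GPX4. That cell also had the highest erythroid marker sum of the CTCs (15571), and its 588141 reads and 5202 genes detected were in the lower part of the range. CTCs held 5 to 10 of the 10 members, with a median of 8, and cultured cells 8 to 10.

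Of the 45 pairs of members, 35 had a Spearman correlation above 0 across the 37 CTCs, and the median was 0.15. The median correlation of each member with 6869 or more other genes ran from 0.00 for NQO1 to 0.19 for PRDX1. The highest pair was NQO1 with TXN at 0.50 and the lowest GPX4 with SLC7A11 at −0.33. After each cell was thinned to the same number of reads, the median was 0.08 and NQO1 with TXN 0.47. Without the s cells of mouse 5546 the median was 0.05, and within those 8 s cells it was 0.42, with 40 of 45 pairs above 0. Within mouse 5545 the median was 0.14 and within the 9 c cells 0.10. These values describe cells that share mice and libraries of different depth, and HMOX1, GCLM and TXNRD1 had correlations of 0.48, 0.42 and 0.43 with the number of genes detected, and NQO1 had −0.02.

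For each member the 3 genes with the most similar pattern over the 37 CTCs were listed. For NQO1 they were LGALS1, the galectin-1 gene, at a Spearman correlation of 0.66, EEF1D at 0.59 and R3HDM2 at 0.59, among 6869 genes with a mean of at least 8 and a median correlation near 0. For PRDX1 they were AP1M1 (0.80), YWHAQ (0.76) and GET3 (0.75), and for TXNRD1 they were POLR2B (0.77), SEC24D (0.74) and BID (0.68). TXN was closest to EIF5A (0.72), PFN1 (0.70) and LSM7 (0.68), and FTH1 to NUTF2 (0.68), RPL10 (0.64) and CFL1 (0.64). GPX4 was closest to PLPP1 (0.67), PTPN1 (0.62) and CD9 (0.60). The lower members gave LETM2, MGME1 and MKKS for GCLM (0.69, 0.68 and 0.67), GFPT2, KAT5 and TMEM184C for SRXN1 (0.71, 0.70 and 0.70), UTP3, LRP6 and MDM2 for SLC7A11 (0.58, 0.57 and 0.54) and STOM, RNF126 and ATP6V1B2 for HMOX1 (0.60, 0.58 and 0.58). Some of these weakened within mouse 5545, where LSM7 with TXN was −0.13, while LGALS1 with NQO1 was 0.94. The cells of mouse 5545 are among the 37 over which the genes were picked, so these values are no separate check. After each cell was thinned to the same number of reads, LGALS1 with NQO1 was 0.52 and LSM7 with TXN 0.61.

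The rest of the pathway was read from lists of related genes. Of 20 tested genes that reduce quinones or supply NADPH, 4 were lower and 0 higher, against 5.31% of all genes lower, and the median log2 ratio was −1.997, against −1.56 for all genes. ME1, the cytosolic malic enzyme that makes NADPH, had 28.9 to 112 normalized reads in the 6 cultured cells and was found in 5 of 37 CTCs, with a mean log2 ratio of −5.01 ± 1.19 (SD, n = 5 mice). TKT, the transketolase of the pentose phosphate pathway, had a mean of 116 ± 45.4 (SD, n = 5 mice) in CTCs and 812 in the culture, and 36 of 37 CTCs lay below the lowest cultured cell (32 of 37 in CPM). ALDH3A1, an aldehyde dehydrogenase, had 0 reads in 37 CTCs and 249 reads in the culture, from 5 of 6 cells. By reads pooled over all CTCs it was at least 701-fold lower. A single cultured cell held 75.1% of the culture reads, and without it the bound was 203-fold. The bound takes pooled reads as independent, and reads here carry no molecular identifiers. It therefore holds for reads and not for molecules or single cells. TRIM16L was found in 4 of 6 cultured cells, at up to 148, and in 12 of 37 CTCs, at up to 24.7. In edgeR the log2 fold changes of ME1, TKT and TRIM16L were −4.36, −1.38 and −2.80, each with an adjusted p = 1.00, as had ALDH3A1.

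Of 10 tested genes that control NRF2, 0 were called and the median log2 ratio was −0.59. Among them NFE2L2, the gene of NRF2 itself, had a mean of 50.8 ± 34.6 (SD, n = 5 mice) in CTCs and 204 in the culture, and KEAP1 had 62.5 ± 48.4 (SD, n = 5 mice) and 201; both were named for their role after the values were seen. Of 19 tested genes of glutathione metabolism, 1 was lower, CHAC1, which breaks glutathione down, at 4.83 ± 0.902 (SD, n = 5 mice), 8.90-fold below the culture, where it ran from 0 to 112. No gene was called among 19 of the thioredoxin system, 13 of iron and heme, 5 that handle superoxide and peroxide, 10 of ferroptosis and 14 selenoproteins, with medians of −1.53, −1.77, −1.24, −1.60 and −1.14. Of 12 targets of ATF4, a stress factor that also acts on SLC7A11, 3 were lower and 0 higher, against 5.31% of all genes lower. The median log2 ratio of the 12 was −1.37, against −1.56 for all genes. TRIB3 and SESN2, not called, had higher means in CTCs, at 214 ± 425 and 106 ± 189 (SD, n = 5 mice) against 35.1 and 17.9. The 3 lower genes were CHAC1, the amino acid transporter gene SLC7A5 and PSAT1 of serine synthesis. PSAT1 had 50.9 ± 18.2 (SD, n = 5 mice) in CTCs against 782 in the culture. PSAT1 was below the lowest cultured cell in 37 of 37 CTCs. Among the blood cell lists HBB and HBD were called higher of 4 tested erythroid genes, with 0 reads in the culture, and 0 of 6 tested platelet, neutrophil, macrophage and leukocyte genes were called. That is not an absence of their reads, since S100A9 was found in 30 and TYROBP in 21 of 37 CTCs. Both had 0 reads in the culture and in mouse 5541, so the rule could not call them. PTPRC, the gene of CD45, was found in 11 of 37 CTCs and had 0 reads in the culture. Its larger mean was under 8, so the rule did not test it. LAPTM5 went the other way, at 118 in CTCs against 277 in the culture. The neutrophil marker sum was 0 in every cultured cell and up to 573 in CTCs.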

How the data were processed

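Single cells were sequenced by SMARTseq2 from polyadenylated RNA, without molecular identifiers in the deposited values. The authors aligned reads to GRCh38 with STAR 2.7.10a, kept uniquely mapped reads, counted them per gene of GENCODE 38 without strand, and divided them by DESeq2 1.42.1 size factors; the deposited values are therefore a signal per gene and cell. The 4 CTCs the authors set aside were not used here, and 0 columns of other samples were present.

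From these values, whole reads were recovered (100% of values above 0 whole within 0.001). Of 25739 gene identifiers, 25684 matched GENCODE 44, which gave symbols, coordinates and canonical lengths. Means were taken per mouse, and the rule of size asked for 4-fold in each of 5 mice with a pseudocount of 1 and a larger mean of at least 8. Recovered reads summed per mouse were tested with edgeR 4.0.16 (R 4.3.3, TMM, filterByExpr, quasi-likelihood, Benjamini-Hochberg), with DESeq2 1.42.0 as an alternative. Both were also run on simulated data with large known changes and no differences between mice. That simulation is no measure of what they can detect in these data. P-values measure the spread between mice and take the single culture to vary likewise. The members, lists and tests were chosen with earlier results of these data known. Named are all 10 members, listed genes called by the rule of size or edgeR, and the 3 genes most correlated with each member; NFE2L2 and KEAP1 were added. Intervals are exact binomial, and a count of 0 allows up to 3 reads, with reads taken as independent. Alternatives changed the fold, pseudocount, minimum, average, scaling, depth and cells used. Figures and ranks used Python 3.11.15.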

Additional observations from a re-analysis of the deposited data

Results flagged for a closer look

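Values were looked for that lie far from the others of their group, by the gap to the nearest value over the range of the group, in the 49 groups of 4 to 10 values that could be examined. The limit used marks about 1 in 20 groups by chance only where values are normally distributed. The read values here are skewed, so that rate does not apply and the number of marks cannot be judged against it. Marks fell on 10 groups, all of them at the highest value of a skewed group. HMOX1 was marked for cell 3 of mouse 5549 (551 normalized reads, next 3.25), for mouse 5549 among the mouse means (139, next 13.7) and for cultured cell P3 (10.7, next 3.23). GCLM was marked for cell 8 of mouse 5542 (63.8, next 10.1) and for cultured cell LM-1 (286, next 129). SRXN1 was marked for cell 4 of mouse 5542 (5.47, next 0.540) and for cultured cell LM-3 (32.8, next 6.27). SLC7A11 was marked for cell 6 of mouse 5549 (430, next 40.9). FTH1 was marked for cell 4 of mouse 5542 (7850, next 1702) and for cell 10 of mouse 5545 (6037, next 2405).

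GPX4 was marked because both CTCs of mouse 5541 (mean 1117) were above the culture mean and all 4 of mouse 5549 (mean 130) below it. This difference was not tested, and in CPM the cells of the 2 mice were not all on opposite sides of the culture mean.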

How the results depend on the processing

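No paired analysis was possible because the numbers shared by groups name picked cells and not a shared animal, batch or day, and the culture is 1 sample. NQO1 was the 1 member called by the rule of size, and it stayed called in 24 of 25 alternatives. A fold of 2, no minimum mean and leaving out a mouse could only loosen the rule for NQO1. Those settings are therefore no check on its call. At a fold of 2 there were 2 members lower, and with ratios centred on the median gene of each mouse 0. The last alternative, the gene-rich and gene-poor splits of the culture, and the removal of cell s6 of mouse 5546, of the 4 CTCs least correlated with the others, and of LM-3 at a fold of 2 were chosen after seeing the data. The count of all genes lower was 487 and became 2298 at a fold of 2, 144 at a pseudocount of 8, 1357 with medians over cells, 137 in CPM, 76 with cells thinned to 469614 reads, 27 when centred and 243 when centred at a fold of 2, and 831 with the 3 gene-rich cultured cells. The count higher was 6 and became 24, 17 at a pseudocount of 0.1, 3 at a pseudocount of 8, 2 with medians, 12 in CPM, 49 and 323 when centred at a fold of 4 and 2, and 130 with the 3 gene-poor cultured cells. Leaving out 1 mouse or cultured cell gave 397 to 757 lower and 5 to 13 higher; the counts moved by over 1.5 times without mouse 5545 (757 lower), and without 5541, 5546 and 5549 (13, 12 and 10 higher). In edgeR 0 genes passed either way. DESeq2 called 2 lower and 18 higher, no filter beyond 1 read 7 and 20, and leaving out 1 mouse or cultured cell 0 lower and 0 to 1 higher; the 1 gene came without mouse 5545. No member passed in any of 19 alternatives. NQO1 and GCLM were below 0 and HMOX1 above 0 in all 26 fits by size and 20 by edgeR. For HMOX1 this rests on 12 culture reads, and mouse 5542 went the other way by size, at −1.87. With medians over cells the HMOX1 mean ratio was 0.02, and HMOX1 was under the minimum mean. At a value of at least 8, GCLM was found in 16 CTCs and SRXN1 in 0. The median correlation of member pairs was 0.0785 after thinning and 0.0456 without the s cells. The cause of these changes was not tested. With 5 mice, 2 to 17 cells each and 1 culture, differences smaller than the spread over mice were not detectable at this depth. Much larger ones could also go uncalled in edgeR. HBB had 76108 reads in CTCs and 0 in the culture, with an adjusted p of 0.657 in that test.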

Other observations

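The genes in these 2 paragraphs were chosen after their values were seen. AKR1C1, an aldo-keto reductase gene known as an NRF2 target, differed widely between mice. It was found in 10 of 37 CTCs, with mouse means of 110 normalized reads in 5541, 499 in 5542, 39.3 in 5545, 0.167 in 5546 and 19.98 in 5549, against 0 to 16.1 in cultured cells. Its mean log2 ratio of 2.93 ± 3.25 (SD, n = 5 mice) was smaller than its spread, and its value is uncertain because close copies such as AKR1C2 and AKR1C3 share much of its sequence. SLC3A2, the transporter partner of SLC7A11, had a mean of 2074 in mouse 5549 and 227 to 425 in the other mice. Cultured cells had 490 to 1796 normalized reads of SLC3A2. The SLC7A11 mean of 121 in mouse 5549 was also the highest of the 5 mice. That SLC7A11 mean rested on cell 6, at 430, with 0, 14.0 and 40.9 in the other cells of the mouse.

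In 23 genes at least 36 of 37 CTCs lay below the lowest cultured cell in CPM. Among these 23, NQO1 had the highest lowest cultured cell, at 1391 normalized reads, followed by ACTN1 at 1141 and XRCC6 at 915. These reads were not divided by transcript length, so the order is not one of expression level. The others included PSAT1, BARD1, RFC3, KRT86, IL11, VDR and QSOX1. BARD1, a partner of BRCA1, had a CTC median of 7.29 and at least 133 in each cultured cell.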
